A study of Mus musculus with 26 samples.

Results

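The immediate early genes Dusp1, Jun, Egr1, Fos and Junb were followed heart by heart, as a gauge of handling or stress, in embryonic hearts with a deletion in the cardiac homeodomain transcription factor Nkx2.5. Every probe set whose only annotated gene is 1 of these 5 was taken from both array tables, which gave 6 probe sets out of 13179, for 5 of the 6137 genes that have a probe set of their own. The B table held X61940_s_at for Dusp1, x12761_s_at for Jun, and K02785_at and v00727_s_at for Fos, and the A table held m22326-2_s_at for Egr1 and u20735_s_at for Junb. In 5 of the 6 the name ends in _s_at, a type whose probes can match more than 1 transcript, and K02785_at was the exception. Whole hearts were taken from 13 mouse embryos on embryonic day 12.5, and the total RNA of each was hybridised to an A and a B oligonucleotide array. The line lacks the NK2-specific domain of Nkx2.5, per the labels, and the hearts were null (3, 4, 8 and N3), heterozygous (5, 6, 12 and N2) or wild type (1, 2, 7, 9 and N1) for it. The labels give no strain, sex, litter or date and nothing on dissection, so p-values reflect the spread among these hearts alone. The annotation names no probe set Nkx2-5, so the deletion itself was not checked here.

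Immediate early genes are transcribed within minutes of a signal, from factors already present in the cell and without new protein synthesis, and their messages decay quickly. Jun, Fos and Junb encode subunits of the dimeric AP-1 transcription factor. Egr1 encodes a zinc finger transcription factor that is switched on by serum and mechanical stimuli, and Dusp1 encodes a phosphatase that inactivates stress-activated and mitogen-activated protein kinases. In heart, as in other tissues, ischaemia, stretch and the handling of fresh tissue are known to raise them.

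The promoters of the B-array members are shown because Dusp1 and Jun were measured near the floor and are compared across hearts, while Fos was within noise. They come from RefSeq on GRCm38.p6 and run 5′ to 3′ from 250 bases before the annotated start to 50 bases after it, with position 0 at the start. Dusp1 lies at chr17:26508423-26508722 on the minus strand, Jun at chr4:95052173-95052472 on the minus strand and Fos at chr12:85473640-85473939 on the plus strand. Capitals mark the cyclic AMP response element TGACGTCA, its shorter core TGACG, the TATA box TATAAA and the Jun promoter's own site TGACATCA.
Dusp1: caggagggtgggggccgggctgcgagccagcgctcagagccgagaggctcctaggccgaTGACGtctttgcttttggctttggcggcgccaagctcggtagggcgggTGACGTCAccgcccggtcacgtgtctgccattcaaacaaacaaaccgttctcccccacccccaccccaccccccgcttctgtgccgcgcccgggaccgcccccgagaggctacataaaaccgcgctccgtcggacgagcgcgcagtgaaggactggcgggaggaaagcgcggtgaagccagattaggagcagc
Jun: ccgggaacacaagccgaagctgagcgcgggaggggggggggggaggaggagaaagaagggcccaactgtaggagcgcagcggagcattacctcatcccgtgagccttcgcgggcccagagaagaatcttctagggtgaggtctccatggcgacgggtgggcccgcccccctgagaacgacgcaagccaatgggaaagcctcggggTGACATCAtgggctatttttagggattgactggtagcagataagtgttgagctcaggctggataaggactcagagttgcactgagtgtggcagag
Fos: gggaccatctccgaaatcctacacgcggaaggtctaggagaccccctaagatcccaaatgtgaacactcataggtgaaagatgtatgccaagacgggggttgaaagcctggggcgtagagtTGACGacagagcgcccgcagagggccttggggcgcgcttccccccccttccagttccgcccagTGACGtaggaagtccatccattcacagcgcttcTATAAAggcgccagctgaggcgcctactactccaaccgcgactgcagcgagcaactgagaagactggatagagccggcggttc
Motifs were searched on both strands, and TGACATCA was added after the sequence had been read. The Dusp1 window held TGACGTCA at position -143, a motif found in 1.79% of 32851 promoters of this length, and its TGACG matches at positions -143 and -140 overlap that element. TGACG alone occurred in 20.81% of promoters, and the Fos window held it at positions -129 and -66. The Jun window held TGACATCA at position -45, which 3.62% of promoters contain, and the Fos window held TATAAA at position -33, which 13.62% contain. The serum response element core (CArG box, 1.63% of promoters), the AP-1 motif TGANTCA (7.81%) and the EGR motif GCGNGGGCG (5.55%) were not among these letters in any of the 3 windows. Bases farther than 250 before the start were not searched, so a site lying there would be missed. The GC box GGGCGG occurred 3 times in Dusp1 and 1 time each in Jun and Fos, against 35.66% of promoters with at least 1. These matches are a description of the sequence.

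The deposited values were read as linear intensity, and some are negative, so a background was taken to have been subtracted. The noise of a table was the root mean square of the values below 0, 443.5 on A and 686.4 on B, and a floor of 2 times the noise (887 and 1373) was applied before log2. Of the 13179 probe sets, 4494 exceeded the floor on at least 4 arrays with at least 2 values per genotype and were tested, and 3 of the 6 immediate early probe sets were among them. These were Dusp1, Jun and Egr1, and both Fos probe sets and Junb missed the filter. The filter passes a probe set on its brighter hearts, so the 3 tested probe sets stand for themselves and not for all 5 genes. Precision is limited by how many arrays there are.

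Fos was not measured above noise in any heart of any genotype. K02785_at read -52.6, 33.7 and -46.7 in null hearts, -31.7, 61.5, -68.6 and -69.7 in heterozygous hearts, and -93.4 to 52.9 (median -22.5) in the 5 wild-type hearts. Its value was blank in null heart 3, and 8 of its 12 values were negative. The second Fos probe set, v00727_s_at, ran from -154.6 to 154.3 in null hearts, from -117.6 to 230.5 in heterozygous hearts and from -135.7 to 167.3 in wild-type hearts. The genotypes overlapped fully on both, and every value lay below 1 times the noise of the B table. Heterozygous heart 5 had the highest value on each probe set, 61.5 and 230.5, also below the noise.

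Junb, the AP-1 subunit measured on the A array, was likewise within noise. It read 37.5, -106.5 and -184.4 in null hearts 3, 4 and N3, -80.8 and -56.8 in heterozygous hearts 5 and 12, and -307.8 to -136.3 in wild-type hearts 2, 7, 9 and N1. Of its 9 values 8 were negative, and 4 hearts were blank. Over the 4 comparisons made for each of these 3 probe sets, exact two-sided permutation tests on the deposited values gave p from 0.0794 to 0.971. Values this close to 0 limit what can be said to the statement that Fos and Junb messages were not detectable on these arrays, in null, heterozygous or wild-type hearts.

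**Figure D1:**
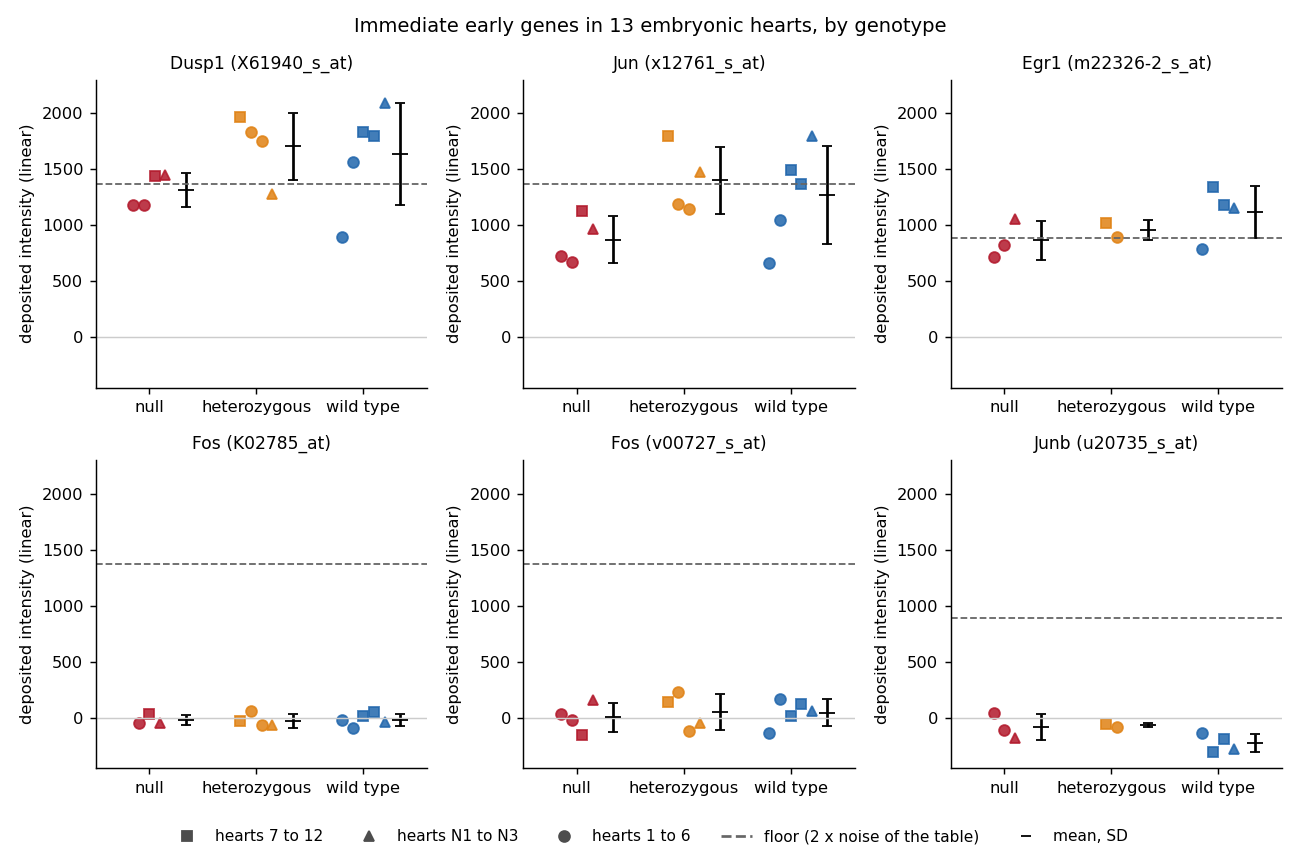
Deposited linear intensity of the 6 probe sets in each heart, by genotype, with null hearts at the left. Colours mark genotypes, marker shapes mark ranges of heart numbers, black bars give the mean and SD, and the dashed line is the floor, 1373 for Dusp1, Jun and Fos and 887 for Egr1 and Junb. Fos and Junb lie around 0 in every heart, and Dusp1, Jun and Egr1 lie on both sides of the floor.

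Dusp1, the kinase phosphatase, exceeded the floor in 9 of 13 hearts. It read 1180.9, 1181.5, 1440.1 and 1453.2 in null hearts 3, 4, 8 and N3. Heterozygous hearts 5, 6, 12 and N2 had 1832.2, 1755.5, 1964.7 and 1278.8, and wild-type hearts 1, 2, 7, 9 and N1 had 897.9, 1562.9, 1836.4, 1798.3 and 2094.3. The null hearts lay inside the range of the wild-type hearts, whose lowest and highest values were the extremes of the whole set. Mean intensity was 1314 ± 153.4 in null hearts (SD, n = 4), 1708 ± 298.8 in heterozygous hearts (n = 4) and 1638 ± 454.6 in wild-type hearts (n = 5).

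Jun, the AP-1 subunit known to act on its own promoter, exceeded the floor in 4 of 13 hearts and in none of the null hearts. It read 722.8, 675.4, 1128.1 and 964 in null hearts 3, 4, 8 and N3. Heterozygous hearts 5, 6, 12 and N2 had 1194, 1148.8, 1794.7 and 1478.6, and wild-type hearts 1, 2, 7, 9 and N1 had 661.2, 1044.2, 1494.6, 1366.2 and 1797.7. All null hearts lay below all heterozygous hearts, although the closest pair, null heart 8 and heterozygous heart 6, differed by little, and the wild-type hearts spanned both. Mean intensity was 872.6 ± 212.1 in null hearts (SD, n = 4), 1404 ± 298.6 in heterozygous hearts (n = 4) and 1273 ± 435.8 in wild-type hearts (n = 5).

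Egr1, the zinc finger factor, was measured in 9 hearts because its cell was blank on the A arrays of null heart 8, heterozygous hearts 6 and N2 and wild-type heart 1. It read 717.2, 827.5 and 1054.2 in null hearts 3, 4 and N3, 895.4 and 1022.7 in heterozygous hearts 5 and 12, and 790.9, 1341.7, 1181 and 1152.3 in wild-type hearts 2, 7, 9 and N1. The genotypes overlapped, and 6 of the 9 values exceeded the floor. Mean intensity was 866.3 ± 171.8 in null hearts (n = 3), 959 ± 90.01 in heterozygous hearts (n = 2) and 1116 ± 232.5 in wild-type hearts (SD, n = 4).

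None of the 3 tested probe sets differed between genotypes after adjustment over all 4494. For null against wild type, the log2 difference of floored signal was -0.28 ± 0.14 (SE) for Dusp1, -0.10 ± 0.11 for Jun and -0.26 ± 0.16 for Egr1, each with an adjusted p of 0.9999 in limma. All 3 estimates were below 0, and the 95% intervals ran from -0.574 to 0.007 for Dusp1, from -0.331 to 0.127 for Jun and from -0.607 to 0.079 for Egr1. Across both tables a single probe set, 0.0223%, was called in this comparison and 108 had an unadjusted p under 0.05, with a median log2 difference of -0.006. In bulk RNA, fewer cells of a type and less RNA per cell cannot be told apart.

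Heterozygous against wild type gave log2 differences of 0.001 ± 0.14 (SE) for Dusp1, 0.02 ± 0.11 for Jun and -0.24 ± 0.18 for Egr1, with limma adjusted p of 0.999, 0.996 and 0.981. No probe set was called (0% of 4494, with 152 at an unadjusted p under 0.05). Null against heterozygous gave -0.28 ± 0.14 for Dusp1 (adjusted p 0.790 in limma), -0.12 ± 0.11 for Jun (0.887) and -0.03 ± 0.19 for Egr1 (0.990), and again no probe set was called (0%, with 260 at an unadjusted p under 0.05). The 3 genotype comparisons share their hearts, so the null hearts enter 2 of them. The intervals for null against heterozygous ran from -0.59 to 0.022 for Dusp1, from -0.365 to 0.118 for Jun and from -0.437 to 0.384 for Egr1.

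The floor bears on Jun most, because 9 of its 13 values were raised to it. On the deposited values, where tests of the 3 probe sets were added after the data were seen, an exact two-sided permutation test of Jun between null and heterozygous hearts gave p = 0.0286, the smallest that 4 against 4 hearts can give, with a mean difference of -531.5 intensity units. Hearts did not overlap between these genotypes in 8.06% of the 4494 tested probe sets (362 probe sets). That share includes probe sets with as few as 2 values per genotype, which separate more easily than 4 against 4, so it is not a like-for-like rate for Jun. No null heart exceeded the floor on Jun, so it passed the filter only through heterozygous and wild-type hearts. Its exact p and its lack of overlap between null and heterozygous hearts are therefore a description. With a lower floor the fitted difference of Jun between null and heterozygous hearts was -0.69 both with a floor of 1 times the noise and with the robust noise (limma adjusted p 0.779 and 0.822), and -0.83 with quantile normalization and the lower floor together (limma adjusted p 0.682). For null against wild type the same 3 alternatives gave -0.50, -0.50 and -0.26, and for heterozygous against wild type 0.19, 0.20 and 0.57, with none called. After quantile normalization the null and heterozygous hearts overlapped on Jun (926.7 ± 351.5 in null and 1659 ± 388.9 in heterozygous hearts, SD, n = 4 each) and the exact p was 0.0857. Dusp1 between null and heterozygous hearts had an exact permutation p of 0.0857 on both scales. Quantile normalization also changed heterozygous against wild-type hearts for Dusp1, to 2009 ± 305.6 and 1440 ± 337.6 (n = 4 and 5), with an exact permutation p of 0.0476 against 0.810 on the deposited values. In all, 24 such tests were run on each scale and 3 on each had an unadjusted p under 0.05.

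**Figure D2:**
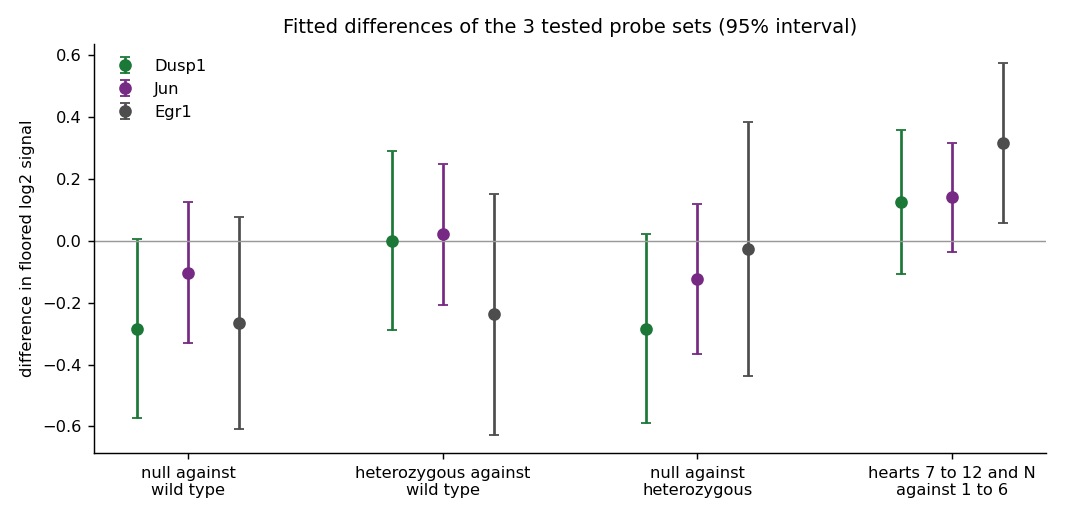
Differences in floored log2 signal for Dusp1, Jun and Egr1, with points for the limma estimate and bars for its 95% interval, in 4 comparisons named with the group on top first. Every genotype interval includes 0, and only Egr1 between ranges of heart numbers has an interval above 0 (0.059 to 0.577), with an adjusted p of 0.124 in limma.

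Jun averaged higher in hearts 7 to 12 and N than in hearts 1 to 6 within every genotype. Egr1 was also higher within each genotype, but null N3, heterozygous 12 and 5 and wild-type 2 each stood alone in their subgroup. Neither gene was called in the fit across all probe sets. Titles number the hearts 1 to 6, 7 to 12 or N1 to N3, and hearts 7 to 12 and N (7 hearts) were set against hearts 1 to 6 (6 hearts) with genotype in the model. What the numbers stand for is not given in the sources used here, and the grouping was chosen with earlier results known. Each range holds all 3 genotypes. Jun averaged 1432 ± 312.8 in hearts 7 to 12 and N (SD, n = 7) and 907.7 ± 248 in hearts 1 to 6 (n = 6). Egr1 averaged 1150 ± 125.6 in hearts 7 to 12 and N (n = 5) and 807.8 ± 74.29 in hearts 1 to 6 (n = 4), and Dusp1 averaged 1695 ± 305.4 in hearts 7 to 12 and N (n = 7) and 1402 ± 370.8 in hearts 1 to 6 (n = 6).

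Egr1 did not overlap between the ranges, at 1023 to 1342 in hearts 7 to 12 and N and 717.2 to 895.4 in hearts 1 to 6. The exact two-sided permutation p was 0.0159, the smallest that 5 against 4 hearts allow, both on deposited and on quantile-normalized values, and the hearts did not overlap on either. Such separation occurred in 7.17% of the 4494 tested probe sets, whose numbers of values per range vary. Egr1 exceeded the floor in all 5 hearts 7 to 12 and N with a value and in 1 of 4 hearts 1 to 6. Egr1 thus passed the filter only through the range in which it was higher, and its separation is a description. For Jun the exact permutation p was 0.0117 on deposited and 0.0396 on quantile-normalized values, and for Dusp1 0.147 and 0.414. Jun, too, passed the filter only through hearts 7 to 12 and N, so its p-values and its separation within genotypes are a description. Within each genotype, the Jun values of hearts 7 to 12 and N lay above those of hearts 1 to 6 without overlap: 964 and 1128.1 against 675.4 and 722.8 in null hearts, 1478.6 and 1794.7 against 1148.8 and 1194 in heterozygous hearts, and 1366.2 to 1797.7 against 661.2 and 1044.2 in wild-type hearts. Hearts 7 to 12 and N lay above hearts 1 to 6 without overlap within each of the 3 genotypes in 6.2% of the 1097 tested probe sets that had at least 2 values in every such subgroup (68 probe sets). After quantile normalization this ended for Jun in wild-type hearts, where heart 9 read 992.49 and heart 2 read 1080.5.

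In the fit across all probe sets none of the 3 was called between the ranges, where 7.14% of probe sets were (174 higher and 147 lower in hearts 7 to 12 and N). The log2 difference was 0.32 ± 0.12 (SE) for Egr1 with a limma adjusted p of 0.124, 0.14 ± 0.08 for Jun (0.311) and 0.13 ± 0.11 for Dusp1 (0.505). All 3 were above 0, and so were 2341 of the 4494 tested probe sets, whose median was 0.015. The 4 hearts in which Jun exceeded the floor (12, N2, 7 and N1) are all in hearts 7 to 12 and N, so Jun passed the filter only through the range in which it was higher. The Jun estimate depended on the floor: with a floor of 1 times the noise it was 0.65 (limma adjusted p 0.0328), and with the robust noise estimate 0.66 (limma adjusted p 0.0431). With quantile normalization together with the lower floor it was 0.60 with an adjusted p of 0.0701. The difference of null against wild type did not differ detectably between the ranges, with a limma adjusted p of 0.999 for the interaction of each of the 3, and other interactions were not tested.

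**Figure D3:**
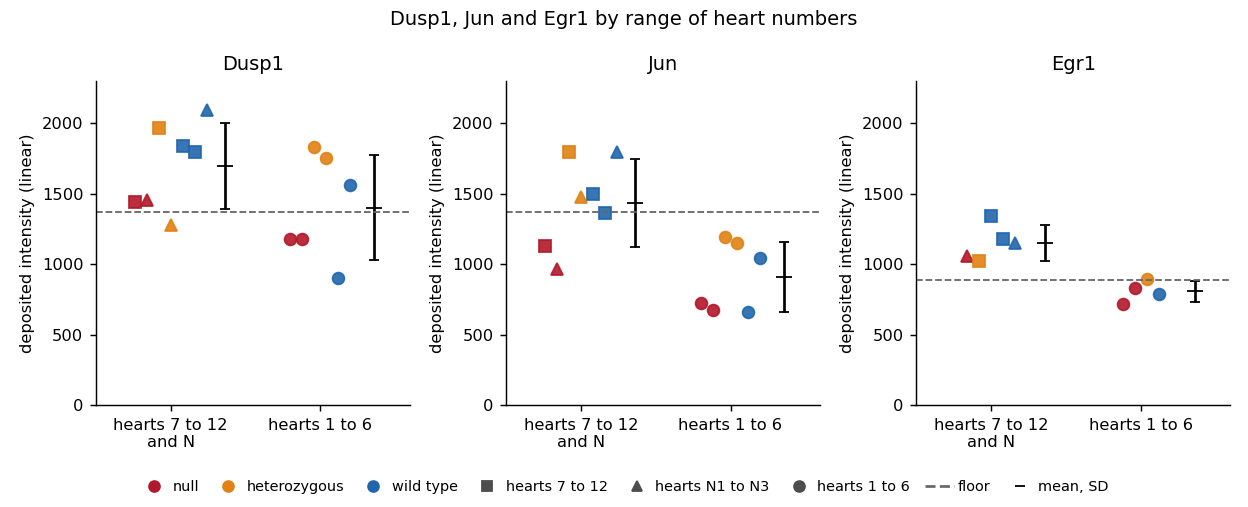
Deposited linear intensity of Dusp1, Jun and Egr1 in hearts 7 to 12 and N (left in each panel) and hearts 1 to 6 (right), coloured by genotype, with mean and SD and the floor dashed. Egr1 does not overlap between the ranges (1023 to 1342 and 717.2 to 895.4), Jun overlaps in part and Dusp1 overlaps over most of its range.

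Jun and Dusp1, which sit on the same array, tended to be high in the same hearts. On floored log2 values the Pearson r across 13 hearts was 0.654 (permutation p = 0.0128, Benjamini-Hochberg adjusted p 0.0537 over the 6 relations computed) and the Spearman rho 0.575 (permutation p = 0.045, adjusted p 0.0782), so the relation missed the threshold. It rested on the outer hearts, since r was 0.133 without the 2 hearts farthest from the median of Jun and 0.497 without wild-type heart N1. In hearts 7 to 12 and N r was 0.740 (n = 7, exact permutation p = 0.0643), and in hearts 1 to 6 it could not be computed because every Jun value was at the floor.

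On deposited intensity, a scale added after the data were seen because the floor ties 9 Jun values, the relation had r = 0.825 (permutation p = 0.0005, adjusted p 0.003) and rho = 0.857 (permutation p = 0.00026, adjusted p 0.00156). Without the 2 hearts farthest from the median of Jun r was 0.721, and with genotype means removed it was 0.764. Within hearts 7 to 12 and N r was 0.728 (n = 7, exact permutation p = 0.0778), and within hearts 1 to 6 it was 0.971 (n = 6, exact permutation p = 0.00556). Wild-type heart N1 and heterozygous heart 12 were the highest for both genes, and wild-type heart 1 was the lowest for both. Heterozygous heart N2 lay apart from the other hearts, with Jun above the floor at 1478.6 and Dusp1 below it at 1278.8. On quantile-normalized values after the floor and log2, r over 13 hearts was 0.523 (permutation p = 0.0947, adjusted p 0.284) and 0.190 with genotype means removed. On quantile-normalized intensity without the floor, r was 0.827 over 13 hearts, 0.821 in hearts 7 to 12 and N and 0.980 in hearts 1 to 6.

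Egr1, on the other array, followed them less closely. Its r was 0.674 with Dusp1 (exact permutation p = 0.0468, adjusted p 0.0468, rho 0.633 with exact permutation p = 0.076) and 0.697 with Jun (exact permutation p = 0.0414, adjusted p 0.0468, rho 0.667 with exact permutation p = 0.0589) on deposited intensity over 9 hearts. Without the 2 farthest hearts these were 0.596 and 0.641. On floored log2 values they were 0.577 and 0.384, with exact permutation p of 0.104 and 0.314, on quantile-normalized floored log2 values 0.249 and 0.316, and on quantile-normalized intensity 0.364 and 0.550. Each range of heart numbers held fewer than 6 hearts with an Egr1 value, so no value within ranges was computed.

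**Figure D4:**
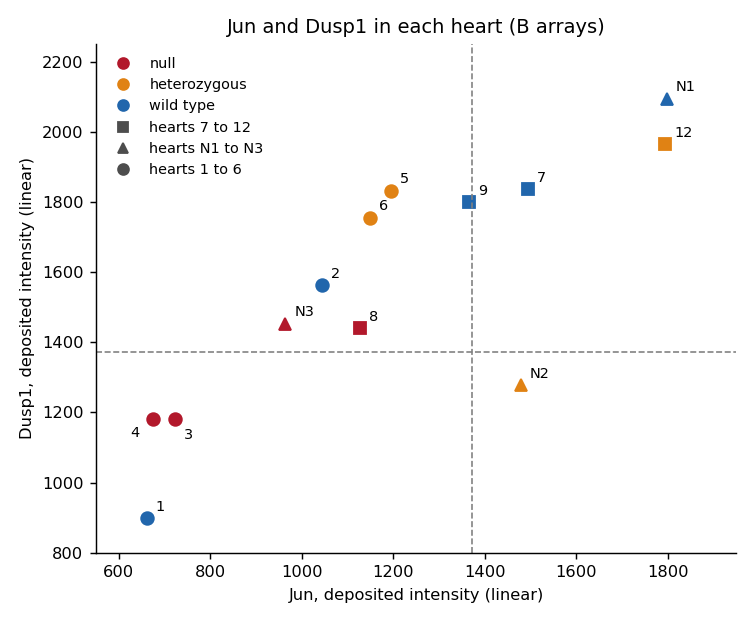
Deposited linear intensity of Dusp1 against Jun in the 13 hearts, labelled by heart, coloured by genotype and shaped by range of heart numbers, with the floor of 1373 dashed on both axes. Hearts N1 and 12 are highest and heart 1 lowest on both axes, r is 0.825, and heart N2 lies below the trend.

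The 99th percentile of signal on the B array, taken over the probe sets without blanks, was 27130 to 75250 (median 47110) in hearts 7 to 12 and N and 59270 to 77000 (median 67210) in hearts 1 to 6. On floored log2 values its correlation across 13 hearts was r = -0.668 for Dusp1 (permutation p = 0.0179, adjusted p 0.0537, rho -0.738 with permutation p = 0.00542 and adjusted p 0.0325) and r = -0.469 for Jun (permutation p = 0.125, adjusted p 0.15, rho -0.557). For Egr1 and the A array r was -0.584 over 9 hearts (exact permutation p = 0.0435, adjusted p 0.087, rho -0.746), and no Pearson r on this scale passed after adjustment. On deposited intensity, the scale added after the data were seen, it was r = -0.665 for Dusp1 (permutation p = 0.00946, adjusted p 0.0203, rho -0.775 with permutation p = 0.00272) and r = -0.676 for Jun (permutation p = 0.0135, adjusted p 0.0203, rho -0.742 with permutation p = 0.00446). Without the 2 farthest hearts r was -0.646 and -0.669. Within hearts 7 to 12 and N r was -0.669 for Dusp1 and -0.428 for Jun (n = 7, exact permutation p = 0.109 and 0.339), and within hearts 1 to 6 it was -0.772 and -0.725 (n = 6, exact permutation p = 0.0667 and 0.108). After quantile normalization the values over 13 hearts were -0.251 and -0.401. For Egr1 and the A array r on deposited intensity was -0.702 over 9 hearts (exact permutation p = 0.0131, adjusted p 0.0203, rho -0.75 with exact permutation p = 0.0255), -0.596 without the 2 farthest and -0.691 after quantile normalization. With genotype means removed, r on deposited intensity was -0.54 for Egr1 (exact permutation p = 0.147), -0.63 for Dusp1 and -0.66 for Jun. On floored log2 values with genotype means removed, r was -0.37 for Egr1, -0.59 for Dusp1 and -0.40 for Jun. The 3′ to 5′ log2 ratio of the Gapdh control probe sets on A, a sign of RNA integrity, was -0.261 to 0.102 in hearts 7 to 12 and N and -0.154 to -0.011 in hearts 1 to 6, and on B -0.221 to 0.077 in hearts 7 to 12 and N and -0.095 to 0.061 in hearts 1 to 6. That of actin was 0.030 to 1.002 on A and -0.267 to 1.026 on B in hearts 7 to 12 and N, against -0.195 to 0.681 on A and 0.147 to 0.472 on B in hearts 1 to 6, and heart N2 had the highest on both. The part of RNA integrity in the result was not tested.

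Expressed as a mean deviation of floored log2 signal from each probe set's median, the combined level of Dusp1, Jun and Egr1 was -0.085 ± 0.055 in null hearts (SD, n = 4), 0.074 ± 0.121 in heterozygous hearts (n = 4) and 0.110 ± 0.188 in wild-type hearts (n = 5). Egr1 was blank in hearts 1, 6, 8 and N2, so their level rests on Dusp1 and Jun alone. The highest hearts were wild-type N1 at 0.328, wild-type 7 at 0.249 and heterozygous 12 at 0.239, and the lowest were null hearts 3 and 4 at -0.131. In null hearts 3 and 4 all 3 genes were raised to the floor. Their -0.131 is therefore the lowest level that a heart with all 3 genes can have, and not a measured level. The median of Jun was itself the floor, so Jun could only raise the level of a heart. By number, hearts 7 to 12 and N averaged 0.119 ± 0.159 (n = 7) and hearts 1 to 6 -0.055 ± 0.086 (n = 6). After quantile normalization the means were -0.087 ± 0.127 in null, 0.202 ± 0.146 in heterozygous and -0.012 ± 0.144 in wild-type hearts, so the wild-type mean changed sign, and 0.115 ± 0.163 in hearts 7 to 12 and N and -0.068 ± 0.149 in hearts 1 to 6. On that scale heart N1 stood at -0.033 and heart 9 at -0.027, against 0.137 for heart 9 on floored log2 values without quantile normalization. The B arrays of these 2 hearts and of null heart 3 lacked 71.4%, 71.4% and 80.6% of their values, and quantile normalization sets such arrays by the probe sets that remain. No heart of any genotype stood apart from its group on any member by Dixon's test, which was applied to the 13 sets of 4 or 5 values.

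Other immediate early genes were read from a list of 53, of which 40 were on the arrays and 16 were tested. Between genotypes none of the 16 was called, and the medians of their log2 differences were -0.02 for null against wild type, 0.064 for heterozygous hearts against wild-type hearts and -0.079 for null against heterozygous. The member nearest to a difference was Ccn2, a matrix-associated growth regulator, at -0.61 ± 0.28 (SE) for null against heterozygous hearts (adjusted p 0.790 in limma). In these genotypes Ccn2 had values only in null hearts 3, 4 and N3 and heterozygous hearts 5 and 12. Between the ranges of heart numbers 10 were higher and 6 lower in hearts 7 to 12 and N, against 2341 of 4494 higher over all tested probe sets, and 2 of the 16 were called, where 7.14% of all were. Jund, the AP-1 subunit that is present in resting cells, rose by 0.69 ± 0.15 on the log2 scale (limma adjusted p 0.0147), with 14642.9 to 29041.4 in hearts 7 to 12 and N and 8033.2 to 13164 in hearts 1 to 6. Fosl2, another AP-1 subunit, was called lower at -0.61 ± 0.14 (limma adjusted p 0.0294).

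For Fosl2 the deposited values of hearts 7 to 12 and N were 210 to 1118.1, all below the B floor, and those of hearts 1 to 6 were 703.9 to 2381.9, in 5 hearts each. Only hearts 1, 4, 5 and 6 exceeded that floor, so Fosl2 passed the filter only through the range in which it was higher, and its difference is a description. It was no longer called with the robust noise (-0.99, limma adjusted p 0.109), with a floor of 1 times the noise (-0.96, 0.103), with quantile normalization and the lower floor together (-0.95, 0.155) or without the 3 B arrays whose highest signal was under 50000 (-0.74, 0.067). The same held without the 3 N hearts (-0.57, limma adjusted p 0.0723) and without null heart 8, heterozygous heart 12 or heterozygous heart N2 (-0.59 each, limma adjusted p 0.0598, 0.0554 and 0.05002). Jund missed the threshold after quantile normalization (0.67, adjusted p 0.0644 in limma), without the mostly blank arrays (0.64, 0.065) and without wild-type heart 2 (0.60, 0.0526). Its probe set x15358_f_at is of a type that can match a family of transcripts. Ier3 (0.51 ± 0.17, adjusted p 0.0887 in limma) and Btg1 (0.62 ± 0.24, 0.132), a stress-induced survival gene and an antiproliferative gene, did not pass, although Ier3 did without heterozygous heart N2 (0.64, adjusted p 0.027 in limma) or without the 3 N hearts (0.55, 0.0242).

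The kinases and factors that act on immediate early genes, 31 listed, 15 on the arrays and 7 tested, gave no call in any comparison. Map2k1, which activates the ERK kinases, was closest at -0.41 ± 0.13 (SE) in hearts 7 to 12 and N against hearts 1 to 6 (adjusted p 0.0722 in limma). Its values were 283.9 to 998.3 in hearts 7 to 12 and N and 813.5 to 1414.2 in hearts 1 to 6. Only hearts 2, 3, 5 and 12 exceeded the A floor, so the filter was passed mainly through hearts 1 to 6, where it was higher. Map2k1 passed the threshold with a floor of 1 times the noise (-0.89, adjusted p 0.0439 in limma) and with the robust noise (-0.94, 0.0477), and also without null heart 4 (-0.52, 0.0399). Heat shock and stress genes, 26 listed, 22 on the arrays and 16 tested, gave no call between genotypes, with medians of -0.003, 0.121 and -0.008 for null against wild type, heterozygous hearts against wild-type hearts and null against heterozygous. Mt1, a metallothionein, was at 0.58 ± 0.24 for null against wild type (adjusted p 0.9999 in limma). It read 3485.9, -435, -2087.1 and 2722.8 in null hearts 3, 4, 8 and N3 and -823.9 to 1139.3 in wild-type hearts, all of these below the floor, so null hearts 3 and N3 carry the difference, which ran from 0.33 to 0.78 leaving out 1 heart at a time. Atf4, the integrated stress response factor, was at -0.58 ± 0.21 for null against heterozygous (adjusted p 0.774 in limma), with values only in null hearts 3, 4 and N3 and heterozygous hearts 5 and 12. Between ranges 1 of the 16 stress genes was called, where 7.14% of the 4494 tested probe sets were called and 7.17% did not overlap. Sqstm1, an autophagy receptor induced by oxidative stress, rose by 0.57 ± 0.12 in hearts 7 to 12 and N (adjusted p 0.0221 in limma), at 8603.2 to 10901.6 against 6578.8 to 7003.5 in hearts 1 to 6, with no overlap. Sqstm1 had values only in hearts 7, 9, 12, N1 and N3 and in hearts 2, 3, 4 and 5. It was no longer called without the 3 N hearts (0.58, limma adjusted p 0.0538), null heart 4 (0.56, 0.0526), null heart N3 (0.53, 0.0616) or wild-type heart 2 (0.59, 0.0905), or with quantile normalization and the lower floor together (0.51, 0.0556). Dnaja1, a cochaperone, was at 0.33 ± 0.14 (adjusted p 0.149).

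Likeness of pattern was measured as Pearson r of floored log2 signal against 668 other single-gene probe sets of the B array with at least 10 shared hearts, as a description. For Dusp1 the most alike were Sox4, a transcription factor (r = 0.819), G3bp2, an RNA-binding protein (0.812), and Hmmr, a hyaluronan receptor (0.806), each over 10 hearts. For Jun they were the kinase gene Pim3 (0.938) and the heme synthesis gene Alas1 (0.912) over 10 hearts and the histone deacetylase gene Hdac5 (0.909) over 13. These points share arrays and scaling, and 9 of the 13 Jun values are tied at the floor. Egr1 had only 9 hearts and was not compared.

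Markers of the heart's cell types were read in the same comparisons, against 7.14% called and 2341 of 4494 higher over all tested probe sets between the ranges. Tnnt2, Actc1 and Myh6, defining markers of cardiomyocytes, and Kdr of endothelium were tested, while none of the 4 liver and 4 neuron markers passed the filter. In hearts 7 to 12 and N against hearts 1 to 6, 9 of 10 tested cardiomyocyte markers were lower (2 called, median -0.352), 4 of 6 endothelial markers were higher (2 called, Eng and Tie1, median 0.295) and 5 of 6 fibroblast and cushion markers were higher (1 called, Lum, median 0.389). The summed intensity of the 3 endothelial markers on B, which include Eng and Tie1, was 22255.1 to 34797.2 in hearts 7 to 12 and N and 13035.7 to 22603.5 in hearts 1 to 6. The sum of the 3 endothelial markers on A overlapped more, at 6779.7 to 7781.6 in hearts 7 to 12 and N and 5248.8 to 7277.3 in hearts 1 to 6. That of 6 cardiomyocyte markers on B was 148320.4 to 462626.2 in hearts 7 to 12 and N and 315944.7 to 553140.9 in hearts 1 to 6. Of 5 tested erythroid markers 2 were higher and 3 lower, with summed intensity on B of 70071.1 to 292142 in hearts 7 to 12 and N and 155671.4 to 442105.3 in hearts 1 to 6, and Alas2 was called higher. Of 3 tested skeletal muscle markers 1 was higher and 2 lower. Myog was called lower, while Ckm went the other way at 0.63 ± 0.26 (limma adjusted p 0.158). Of 2 tested leukocyte markers none was called, with summed intensity on A of 7761.1 to 12785.5 in hearts 7 to 12 and N and 8425.2 to 10259.6 in hearts 1 to 6. For null against wild type all 10 tested cardiomyocyte markers were higher (median 0.367), as were all 5 erythroid markers (median 0.567) and all 3 skeletal muscle markers (median 0.363), while all 6 endothelial markers and both leukocyte markers were lower (medians -0.261 and -0.127). Of 6 fibroblast and cushion markers 2 were higher and 4 lower (median -0.183). None was called in that comparison, where Tnni2, a fast skeletal muscle troponin, was at 1.83 ± 0.33 (SE, limma adjusted p 0.113). The part of cell makeup in the levels of Dusp1, Jun and Egr1 was not tested.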

How the data were processed

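The deposited values were read as linear intensity, 1 value per probe set and array, and were used as deposited. Negative values were taken to mean that a background had been subtracted. The software and the scaling target are not given in the sources used here. Blank cells were treated as missing, and 55 control probe sets per table were left out of the tests but not of the noise estimate. Values below the floor were raised to it and log2 was taken. The comparison of genotypes used limma (version 3.58.1, R 4.3.3): 1 fit per table to the 13 hearts, a variance trend, two-sided tests and Benjamini-Hochberg adjustment over 4494 probe sets at a threshold of 0.05; the ranges of heart numbers were compared with genotype in the model. Fits were tested on simulated data. Permutation tests used scipy 1.17.1, exact where a group or relation had fewer than 10 hearts and with 100000 resamples otherwise. Symbols came from the platform annotation, updated through RefSeq gene IDs (7544 of 7561 single-gene probe sets matched). The genes named were all member probe sets, the 3 most alike probe sets per member, and list members past the threshold or, failing that, with an unadjusted p under 0.05. The members, lists and ranges were chosen with earlier results of these data known. Alternatives changed the noise estimate, floor, filter, scaling, block, variance model and hearts included. No heart number occurs in 2 genotypes.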

Additional observations from a re-analysis of the deposited data

How the results depend on the processing

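Dusp1, Jun and Egr1 were not called between genotypes under any of 177 alternatives, of which 12 turned an estimate near 0. Egr1, null against heterozygous, was 0.0664 with the range of heart numbers as a block, and Dusp1, heterozygous against wild type, was -0.0084 without the 3 B arrays whose highest signal was under 50000, an alternative chosen after seeing the data. Leaving out 1 heart at a time, Dusp1 between heterozygous and wild-type hearts ran from -0.0793 to 0.1083, Jun from -0.0045 to 0.0622, and Egr1 between null and heterozygous hearts from -0.1096 to 0.0151. Of the 13 hearts left out in turn, Jun had a value for 9, as it was not tested without heterozygous 12 or N2 or wild-type 7 or N1, the 4 hearts in which it exceeds the floor, and Egr1 for 11, as it was not tested without heterozygous 5 or 12. Between ranges of heart numbers 48 of 50 alternatives gave the same answer for the members, and Jun passed the threshold in the other 2, given above. With a floor of 4 times the noise none of the members was tested, and Jun was not tested after quantile normalization, without the mostly blank arrays, without those 3 B arrays or without the N hearts, since fewer than 4 arrays exceeded the floor. Without a filter, probe sets at the floor on every array were still left out. The count called for null against wild type was 2 with the robust noise and with a floor of 1 times the noise, 3 with the block, 0 without the filter, with quantile normalization (also with the lower floor), without mostly blank arrays, without the 3 B arrays and without the N hearts, and 0 to 3 leaving out 1 heart (0 without null 3, null N3, or wild-type 1, 7 or N1). For null against heterozygous it was 1 with the block. Between the ranges it was 139 with quantile normalization, 128 with the lower floor added, 192 without mostly blank arrays, 181 without the 3 B arrays and 103 to 342 leaving out 1 heart (103 without wild-type 2, 104 without null 4, 142 without null 8 or wild-type 7, 175 and 211 without heterozygous 5 and 12, 184 without wild-type 1). No paired analysis was possible because no heart number occurs in 2 genotypes. The cause of these shifts was not tested.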
